A study of Sus scrofa with 10 samples.

Results

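GAD1, GAD2 and SLC32A1 were followed across all 10 single-cell and single-nucleus libraries of the porcine medial entorhinal cortex (MEC). These 3 genes of the 22452 in the count tables were chosen for their role in GABA synthesis and vesicular transport, without use of any measured value. GAD1 and GAD2 encode the glutamate decarboxylases GAD67 and GAD65, which make the inhibitory transmitter GABA from glutamate. SLC32A1 encodes VGAT, the carrier that loads GABA and glycine into synaptic vesicles, so a neuron that releases GABA at synapses is expected to hold transcripts of a decarboxylase and of the carrier. In the cortex these transcripts mark interneurons, which are born in the ganglionic eminences of the ventral forebrain and migrate into the cortex during fetal life. Outside the cortex the same genes are used by other inhibitory neurons, among them striatal, thalamic and midbrain neurons and the Purkinje cells of the cerebellum.

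The libraries were whole cells of fetal pigs at embryonic day 50 (E50_1, 3 pooled brains), at day 60 (E60_1 and E60_2, 1 brain each, and E60_3, 2 brains) and at day 70 (E70_1, 2 brains, and E70_2 and E70_3, 1 brain each), whole cells of an adult brain (Adult_1), and nuclei of 1 brain at day 70 (E70_nc) and of 1 adult brain (Adult_nc). Numbers of brains are those of the labels, from which the study's own sample list differs for E70_1 and E70_3. The labels call the postnatal animals adult, while the study's text is not uniform on their age. The fetuses were crossbreds of Danish Landrace/Yorkshire sows and Duroc boars from a production farm, and none was treated or genetically altered. Whole cells came from fresh tissue digested with papain, and nuclei came from frozen tissue and were sorted for the DNA dye 7-AAD. E60 and E70 whole cells were the only groups with more than 1 library, and every other difference between libraries has no replicate check.

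The libraries held 493 to 8171 cells and 2336865 to 55755512 UMIs in all, with medians of 690 UMIs (unique molecules counted) per cell in Adult_nc, 2616 in E70_nc and 4251 to 9403 in whole cells. Clusters of erythroid-like and vascular-like cells were left out, which kept 23808 of 28229 cells in 43 clusters. Of the 27777 distinct cell barcodes, 449 were found in more than 1 library, at most 57 in any of the 45 pairs. Libraries E60_1 and E60_2 went against the tissue label. EMX1, a transcription factor of the dorsal cortex, was at 0.449 and 0.343 CPM (UMIs of the gene scaled to a total of 1e6) in E60_1 and E60_2, against 20.1 CPM in E60_3 and 9.21 to 45.8 CPM in E50_1 and the E70 whole cells. FEZF2, a marker of deep layer neurons, was at 0 in both. The summed level of 10 interneuron markers (DLX genes, LHX6, NPAS1 and PROX1 among them) was 12.3 CPM in E60_1 and 5.49 CPM in E60_2. Of the 10 markers, 3 and 6 were at 0 in these libraries. The sum was 19.03 CPM in E50_1, with 0 markers at 0, and 100 to 142 CPM in E60_3 and the E70 whole cells. It thus set E60_1 and E60_2 apart from E60_3 and the E70 whole cells but hardly from E50_1. EMX1 and FEZF2 (59.6 CPM in E50_1) did differ from E50_1. Neither E60_1 nor E60_2 held a cell of the interneuron-like clusters, and E50_1 held 24. The tests that used E60_1 and E60_2 were also run without them.

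The promoters of GAD2 and SLC32A1 are shown because the transcripts of the decarboxylase and of the carrier go together in cells, so that the letters at their starts can be compared. Each line gives the 300 bases before the annotated gene start in RefSeq, build Sscrofa11.1, on the strand of the gene. Capitals mark a GC box (GGGCGG), searched on both strands.
GAD2 promoter: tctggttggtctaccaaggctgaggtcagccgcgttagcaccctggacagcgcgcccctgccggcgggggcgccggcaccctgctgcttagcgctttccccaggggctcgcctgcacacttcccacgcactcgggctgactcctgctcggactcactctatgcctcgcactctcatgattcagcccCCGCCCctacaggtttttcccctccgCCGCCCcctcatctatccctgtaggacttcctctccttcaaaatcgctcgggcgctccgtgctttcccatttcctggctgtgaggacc
SLC32A1 promoter: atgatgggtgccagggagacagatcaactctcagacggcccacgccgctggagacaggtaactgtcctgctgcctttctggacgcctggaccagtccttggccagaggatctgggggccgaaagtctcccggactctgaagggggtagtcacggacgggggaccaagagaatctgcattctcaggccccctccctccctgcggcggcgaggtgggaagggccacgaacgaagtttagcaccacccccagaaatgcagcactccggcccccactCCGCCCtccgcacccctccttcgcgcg

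GAD1 lies on chromosome 15 from 76991863 to 77034819 (plus strand), GAD2 on chromosome 10 from 49316682 to 49391013 (minus strand) and SLC32A1 on chromosome 17 from 41689479 to 41694560 (plus strand). The printed windows are chr10:49391014-49391313 and chr17:41689179-41689478. The GAD2 window held 2 GC boxes and that of SLC32A1 held 1, and 47.7% of the 19544 promoter windows of this length in the genome held one. The TATA box TATAAA had no match in either window, and 11.9% of all windows held one. The homeodomain core TAATTA (4.83% of all windows) and the GATA motif AGATAA (10.0%) were searched because DLX and GATA factors are regulators of GABA neurons, and neither was in these windows. The windows were 64.3% and 64.7% G or C for GAD2 and SLC32A1, against a median of 56.7% over all windows, and held 21 and 19 CpG pairs against a median of 13. These matches describe letters in a window and show no binding.

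GAD1 and GAD2 transcripts were found in every library, and SLC32A1 transcripts in every library with as few as 1 UMI. Levels are CPM over the kept cells of a library, and intervals on them and on shares are 95% exact Poisson and Clopper-Pearson intervals, which cover counting error only. GAD1 was at 38.2 CPM in E50_1, at 11.5, 19.98 and 18.4 CPM in E60_1 to E60_3, at 27.4, 32.3 and 17.7 CPM in E70_1 to E70_3, at 58.1 CPM in E70_nc, at 27.8 CPM in Adult_1 and at 36.5 CPM in Adult_nc. The nuclei of E70 were highest, E60_1 was lowest, and E70_3 lay among the E60 libraries. GAD2 followed with 54.8 CPM in E50_1, 25.4, 30.9 and 36.5 CPM at E60, 44.2, 40.5 and 34.4 CPM at E70, 90.6 CPM in E70_nc, 18.1 CPM in Adult_1 and 40.1 CPM in Adult_nc. Here Adult_1 was lowest, and again 1 library of E70 overlapped with E60. SLC32A1 ran in another order, with 18.8 CPM in E50_1 (916 UMIs), 10.8, 6.94 and 3.04 CPM at E60 (336, 81 and 72 UMIs), 2.21, 1.44 and 1.86 CPM at E70 (12, 9 and 47 UMIs), 0.328 CPM in E70_nc (1 UMI, interval 0.00831 to 1.83), 11.9 CPM in Adult_1 (59 UMIs) and 2.67 CPM in Adult_nc (6 UMIs, interval 0.981 to 5.82). The 3 E60 libraries were all above the 3 E70 libraries, while the intervals of E60_3 overlapped with those of E70_1, E70_2 and E70_3.

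**Figure D1:**
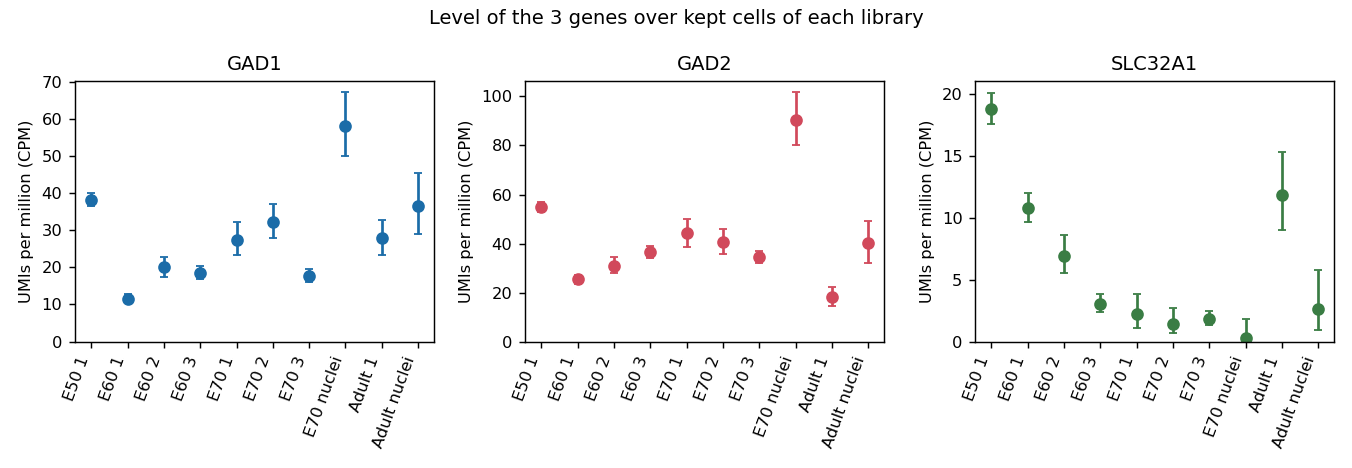
Level of GAD1, GAD2 and SLC32A1 (CPM over kept cells, linear axes from 0) in each of the 10 libraries. Points are the libraries and bars are 95% exact Poisson intervals. SLC32A1 goes from 18.8 CPM in E50_1 to 0.328 CPM in E70_nc, and GAD1 and GAD2 are highest in E70_nc.

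The comparison of E60 with E70 asked whether the 3 transcripts change between the 2 stages with replicates. Means were 16.7 ± 4.503 CPM at E60 and 25.8 ± 7.43 CPM at E70 (SD, n = 3) for GAD1, 30.96 ± 5.55 and 39.7 ± 4.94 CPM for GAD2, and 6.92 ± 3.87 and 1.84 ± 0.386 CPM for SLC32A1. In edgeR's quasi-likelihood test on the summed counts, the log2 difference of E70 over E60 was 0.48 ± 0.37 (SE) for GAD1 (adjusted p = 0.399), 0.21 ± 0.26 for GAD2 (adjusted p = 0.593) and -2.10 ± 0.58 for SLC32A1 (adjusted p = 0.138). None of the 3 genes was called, and neither was any other of the 16358 genes tested (0%), although 4653 had an unadjusted p under 0.05 and DESeq2 called 2456. The E60 and E70 libraries did not overlap for SLC32A1, and the same held for 3952 of the 16358 genes (24.2%). SLC32A1 passed with DESeq2 (log2 difference -2.11, adjusted p = 0.0112), which called 2456 of 16358 genes. It also passed in edgeR without E60_3 (-2.52, adjusted p = 0.0164), where 5590 of 16339 genes were called. Without E60_1 and E60_2, which left only E60_3 at E60, its difference was -0.72. Within the sequencing pools that held both stages, the difference was -2.29 for E70_1 against E60_1 and -0.71 for E70_3 against E60_3. GAD1 gave 1.25 and -0.06 in these pools, and GAD2 gave 0.80 and -0.09. The GAD genes thus differed little between E60_3 and E70_3, with counting intervals that overlapped. SLC32A1 was lower at E70 in both pools, though its intervals in E60_3 and E70_3 also overlapped.

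The share of cells with a transcript depends on depth and was therefore also taken after each cell was thinned at random to 1000 UMIs, which left out no cell of E60 or E70 whole cells. Unthinned, GAD1 was found in 7.52 ± 3.22% of E60 and 13.9 ± 5.32% of E70 cells, GAD2 in 10.97 ± 4.12% and 21.2 ± 6.82%, and SLC32A1 in 2.95 ± 0.648% and 1.84 ± 0.757% (n = 3 libraries). At 1000 UMIs the shares were 1.89 ± 0.737% and 3.05 ± 0.828% for GAD1, 2.93 ± 0.783% and 4.73 ± 1.63% for GAD2, and 0.621 ± 0.292% and 0.156 ± 0.0801% for SLC32A1. A two-sided exact permutation test over libraries, which cannot go below 0.1 with 3 against 3, gave p = 0.2, 0.2 and 0.1, all 0.2 after adjustment over the 3 genes. In the pool of E60_1 and E70_1 the thinned shares differed by 2.77, 4.32 and -0.627 percentage points for GAD1, GAD2 and SLC32A1, and in the pool of E60_3 and E70_3 by 0.00289, 0.590 and -0.224. Without E60_1 and E60_2 the differences were 0.876, 0.972 and -0.136. In microglia-like cells outside 1 SPP1+/CXCL10+ cluster with neuron markers, cells which should lack these transcripts, the unthinned shares were 1.84%, 2.68% and 0.320% for GAD1, GAD2 and SLC32A1 (2499 cells, median 5016 UMIs).

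The balance of the decarboxylase genes did not differ between E60 and E70 beyond the spread between libraries. GAD2 gave 59.0% of the GAD1 and GAD2 UMIs in E50_1, 68.8, 60.8 and 66.4% in the E60 libraries, 61.7, 55.6 and 66.0% in the E70 whole cells, 60.9% in E70_nc, 39.5% in Adult_1 and 52.3% in Adult_nc. Both adult libraries were below every fetal library, but Adult_1 was at 64.3% without its 5% deepest cells. The means of E60 and E70 were 65.3 ± 4.13% and 61.1 ± 5.23% (n = 3), a difference of -4.24 percentage points (exact permutation p = 0.4), with -7.11 and -0.429 within the pools and -5.33 without E60_1 and E60_2. SLC32A1 relative to the GAD genes, a ratio taken up after the data were seen, was 20.2 UMIs per 100 GAD1 and GAD2 UMIs in E50_1, 29.2, 13.6 and 5.53 at E60, 3.08, 1.98 and 3.57 at E70, 0.221 in E70_nc, 25.9 in Adult_1 and 3.49 in Adult_nc. The means were 16.1 ± 12.0 and 2.88 ± 0.818, and no E70 library reached an E60 library (exact permutation p = 0.1, the smallest this design allows). The difference was -26.1 and -1.96 within the pools and -2.65 without E60_1 and E60_2, against -13.2 with all 6 libraries.

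The 3 transcripts came from different clusters in different libraries. Clusters were named from marker lists that do not hold the 3 genes, although these genes could enter the clustering itself, so levels by cluster are a description. In E60_3 and the E70 whole cells the interneuron-like cells held most of the GAD1 UMIs, with 64.1% in E60_3, 84.6% in E70_1, 86.1% in E70_2 and 67.6% in E70_3. They held 67.7, 55.0, 71.1 and 68.5% of the GAD2 UMIs and 59.7, 75, 100 and 51.1% of the SLC32A1 UMIs of these libraries. In E50_1, by contrast, interneuron-like cells held 2.10, 1.80 and 1.31% of GAD1, GAD2 and SLC32A1, and other neuronal clusters held 92.2, 88.9 and 96.1%. In E60_1 and E60_2 other neuronal clusters held 75.5 and 60.1% of GAD1, 76.0 and 58.2% of GAD2, and 88.7 and 72.8% of SLC32A1, and the rest was in non-neuronal clusters. The E60 and E70 comparison of whole libraries therefore set different cell populations side by side, and within interneuron-like cells it could not be tested, since E60_1 and E60_2 held 0 such cells.

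Within the interneuron-like class (970 cells, median 5505 UMIs) GAD1 was at 191 CPM, GAD2 at 315 CPM and SLC32A1 at 17.4 CPM, and a UMI was found in 56.8, 74.9 and 9.48% of the cells. The class had 2 clusters, one led by NXPH1, a neurexophilin, and VWC2 (427 cells) and one led by ERBB4, a neuregulin receptor, and the homeobox gene DLX1 (543 cells). GAD1 was at 211 CPM in the NXPH1+ and 177 CPM in the ERBB4+ cluster, GAD2 at 414 and 244 CPM, and SLC32A1 at 18.2 and 16.7 CPM. By library, GAD1 in interneuron-like cells was at 149 CPM in E60_3, 201, 227 and 182 CPM in E70_1 to E70_3, and 300 CPM in E70_nc, with 255 CPM in the 24 such cells of E50_1 and 164 CPM in the 46 of Adult_nc. GAD2 in the same cells was at 312 CPM in E60_3, 211, 235 and 358 CPM at E70, 468 CPM in E70_nc, 314 CPM in E50_1 and 204 CPM in Adult_nc. SLC32A1 was at 22.9 CPM in E60_3 (43 UMIs), 14.4, 11.8 and 14.4 CPM at E70 (9, 9 and 24 UMIs), 78.4 CPM in E50_1 (12 UMIs) and 19.7 CPM in Adult_nc (3 UMIs), and at 0 in the 180 interneuron-like nuclei of E70_nc, which allows a share of nuclei with a UMI of up to 1.67% at a floor of 3 counts (Clopper-Pearson upper limit 2.03%, median 2303.5 UMIs) and sets no limit on the nuclei that express the gene. The interval of E60_3 overlapped with those of the 3 E70 whole cell libraries.

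The highest SLC32A1 levels were in 4 neuronal clusters outside the interneuron-like class. A Purkinje-like cluster (CALB1, CA8, ITPR1, 229 cells) had GAD1 at 146 CPM, GAD2 at 153 CPM and SLC32A1 at 111 CPM. An unnamed cluster led by the neuropeptide genes PENK, SST and TAC1 (1095 cells) had 89.3, 106 and 73.0 CPM of the 3 genes. Another led by the transcription factor genes LHX9 and TFAP2D (944 cells) had 105, 193 and 33.0 CPM, and one led by PCP4, CALB1 and TAC1 (476 cells) had 74.0, 134 and 32.3 CPM. These 4 clusters came from E50_1, E60_1 and E60_2 for most of their GAD UMIs. The LHX9+ and PENK+ clusters held 41.9% and 32.5% of the GAD UMIs in neurons of E50_1, the PENK+ cluster held 43.3% in E60_1, and the PCP4+ cluster held 70.9% in E60_2. A UMI of at least 1 of the 3 genes was found in 81.7% of Purkinje-like, 58.8% of PCP4+, 47.1% of PENK+ and 36.3% of LHX9+ cells. In the NXPH1+ and ERBB4+ interneuron-like clusters it was found in 92.7 and 84.0%. Whether LHX9 and TFAP2D were in the same cells as the GAD transcripts was not tested. Excitatory-like cells had 5.39, 10.8 and 1.08 CPM of the 3 genes, and the microglia-like class had 3.36, 5.53 and 0.630 CPM without the SPP1+/CXCL10+ cluster.

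**Figure D2:**
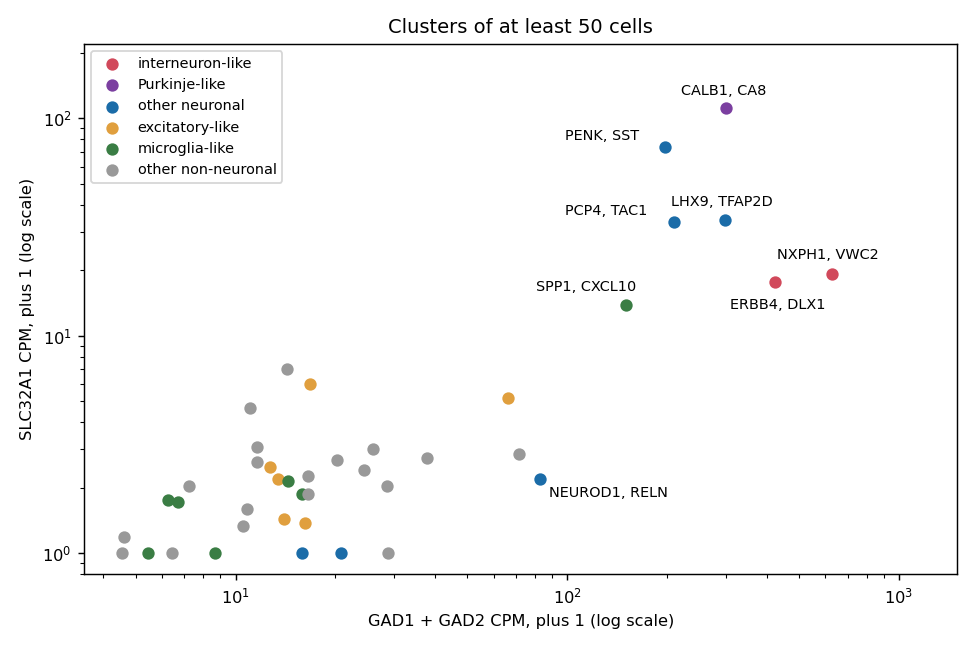
Summed GAD1 and GAD2 level (horizontal) against the SLC32A1 level (vertical) in the 41 clusters of at least 50 cells, in CPM plus 1 on log axes, with colours for the cluster names and labels for leading genes. The interneuron-like clusters lie farthest right at 18.2 and 16.7 CPM of SLC32A1, and the Purkinje-like cluster is highest at 111 CPM.

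The ratio of SLC32A1 to the GAD genes ran over a wide range between these clusters. Per 100 GAD1 and GAD2 UMIs, SLC32A1 had 2.92 UMIs in the NXPH1+ and 3.98 in the ERBB4+ interneuron-like cluster, 11.07 in the LHX9+, 15.5 in the PCP4+, 37.3 in the PENK+ and 37.1 in the Purkinje-like cluster. In the NXPH1+ cluster the ratio was 4.55 in E60_3 and 3.97, 1.29 and 2.03 in E70_1 to E70_3, and in the ERBB4+ cluster it was 5.48 in E60_3, 3.03, 4.92 and 3.65 at E70 and 5.45 in Adult_nc. In both clusters E60_3 was above the E70 whole cells, with intervals that overlapped. The PENK+ cluster had 35.5 in E50_1, 48.4 in E60_1 and 51.8 in E60_2, and the Purkinje-like cluster 34.5 in E50_1 and 53.6 in E60_1. In the LHX9+ cluster E60_1 stood apart with 30 against 10.5 in E50_1 and 10.9 in E60_2, and in the PCP4+ cluster the 3 libraries had 28.6, 18.0 and 10.1. With 1 library at E50 and 2 that went against the tissue label, no test was made of these differences.

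**Figure D3:**
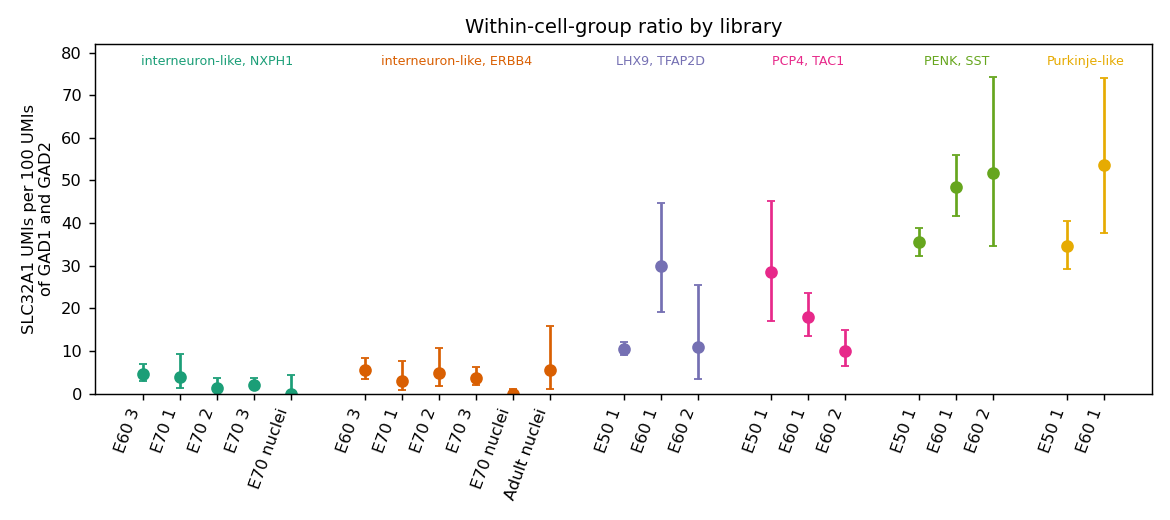
SLC32A1 UMIs per 100 UMIs of GAD1 and GAD2 (vertical, linear from 0) in 6 clusters, by library with at least 20 cells in the cluster. Points are libraries and bars are 95% counting intervals. The interneuron-like clusters lie at 0 to 5.48, and the PENK+ and Purkinje-like clusters at 34.5 to 53.6.

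Within cells, the 3 transcripts were found together more often than depth alone gives. A UMI of at least 1 of the 3 genes was found in 3692 of the 23808 kept cells (15.5%). GAD1 alone was found in 643 cells, GAD2 alone in 1360 and SLC32A1 alone in 155, while 804 had both GAD genes, 90 had GAD1 with SLC32A1, 181 had GAD2 with SLC32A1 and 459 had all 3. Of the 885 cells with SLC32A1, 82.5% also had a GAD UMI, and by library this share was 60 to 100%. Of the cells with a GAD UMI, 20.6% had SLC32A1, against 0.765% of the other cells. This share was 37.6% in E50_1, 28.8, 18.4 and 10.96% in E60_1 to E60_3, 7.69, 4.19 and 6.68% in E70_1 to E70_3, 0.562% in E70_nc, 10.2% in Adult_1 and 3.85% in Adult_nc. E50_1 and E60_1 were highest and E70_nc was lowest. By cluster it was 59.1% in Purkinje-like and 57.9% in PENK+ cells, 38.7% in LHX9+ cells, and 9.16 and 10.8% in the NXPH1+ and ERBB4+ interneuron-like clusters.

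To take depth out, the cells of each library were divided into 10 strata by UMIs, and the number of cells expected to hold both genes of a pair was summed over strata. The observed number exceeded the expected number for GAD1 and GAD2 by 3.39-fold on average (geometric mean), from 2.13-fold in Adult_1 to 6.61-fold in E60_1, and was above 1 in 10 of 10 libraries (two-sided exact sign-flip permutation test over libraries, adjusted p = 0.00585938 over 6 pairs). GAD1 and SLC32A1 gave 4.29-fold (2.39 to 7.52, 10 of 10 libraries, exact permutation adjusted p = 0.00585938), with 335 cells against 73.4 expected in E50_1 and 24 against 3.24 in E70_3. For this pair E70_nc was above 1 on 1 cell against 0.118 expected. GAD2 and SLC32A1 gave 3.30-fold (0.739 to 7.52, 9 of 10 libraries, exact permutation adjusted p = 0.00585938), and the exception was E70_nc, with 0 cells against 0.176 expected. With every cell thinned to 1000 UMIs the GAD1 and SLC32A1 excess was 0.71 on the log2 scale and no longer passed (exact permutation adjusted p = 0.150), with at most 1 such cell in 7 of 10 libraries, whereas the other pairs of members passed. GAD2 and SLC32A1 also passed on few such cells, with 0 to 2 in every library but E50_1 (20) and E60_1 (12).

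SLC17A6, the vesicular glutamate transporter VGLUT2, served as the opposite case, since it marks excitatory neurons. Cells with GAD1 and SLC17A6 were found at 0.521 times the expected number (0.337 to 1.16, above 1 in 1 of 10 libraries, exact permutation adjusted p = 0.00585938), and cells with SLC32A1 and SLC17A6 at 0.428 times (0.133 to 1.86, above 1 in 1 of 10, exact permutation adjusted p = 0.0117). GAD2 and SLC17A6 were nearer to 1, at 0.712 times (0.385 to 1.63, above 1 in 2 of 10, exact permutation adjusted p = 0.0371). In all 3 pairs Adult_1 was above 1, on few cells. It had 2 cells against 1.66 expected with GAD1, 5 against 2.87 with GAD2 and 2 against 0.844 with SLC32A1. The GAD2 and SLC17A6 call was lost without E50_1, E60_3, E70_2, E70_3 or E70_nc, each left out alone (adjusted p = 0.0742 each), and the SLC32A1 and SLC17A6 call was lost at 1000 UMIs (adjusted p = 0.223). Without E60_1 and E60_2 all 6 pairs stayed past the threshold. The expected numbers above are over all kept cells, which differ in cell type as well as in depth. Over cells of neuronal clusters alone, the mean log2 of observed over expected was smaller for the pairs of members, at 1.19 for GAD1 and GAD2, 1.38 for GAD1 and SLC32A1 and 1.08 for GAD2 and SLC32A1. It was farther below 0 for the pairs with SLC17A6, at -1.50 with GAD1, -1.21 with GAD2 and -1.87 with SLC32A1. All 6 pairs passed there (exact permutation adjusted p = 0.00585938 to 0.0078125). GAD2 and SLC17A6 were at 0.304 in E60_1 and 0.248 in E60_2 among neurons, and no library was above 1 for a pair with SLC17A6. Adult_1 held 8 neuronal cells, fewer than the 10 strata, which fixed its ratio at 1 for every pair. Its value among neurons therefore shows nothing about these pairs.

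**Figure D4:**
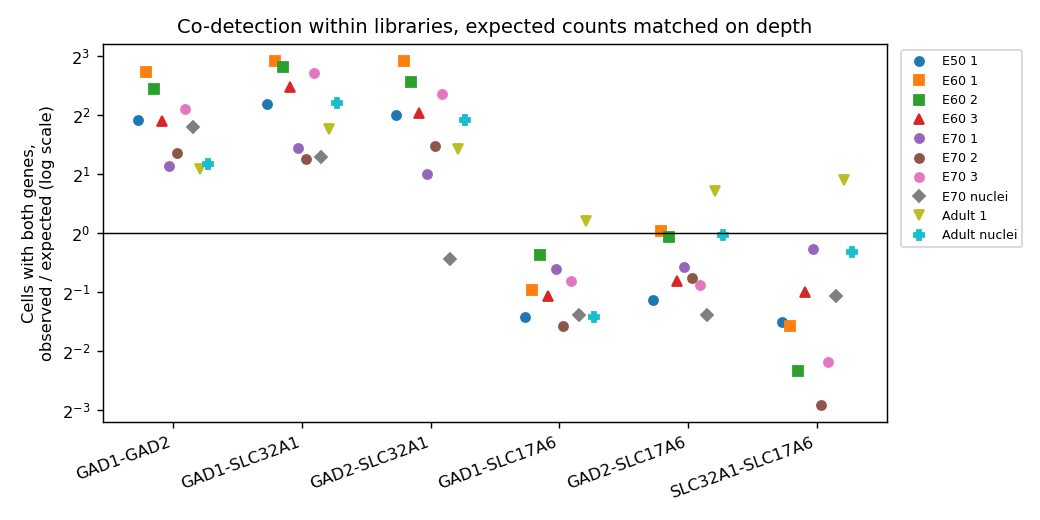
Observed over expected number of cells with both genes of a pair (vertical, log axis, line at 1) for 6 gene pairs in each of the 10 libraries (points). Expected numbers were matched on UMIs per cell within 10 strata. Pairs of the 3 GABA genes lie above 1 except GAD2 and SLC32A1 in E70_nc, and pairs with SLC17A6 lie mostly below 1.

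The share of GAD cells with SLC32A1 was also taken by depth, as a description. When the kept cells of each library were ordered by UMIs and divided into 4 equal bins, 16.1, 17.3, 20.6 and 26.7% of the cells with a GAD UMI had SLC32A1, from the shallowest to the deepest bin. In Purkinje-like cells this share went from 31.6% (12 of 38 cells) through 51.4 and 55.6% to 86.8% (46 of 53), and in PENK+ cells from 37.3 through 45.0 and 57.1 to 69.1%. In interneuron-like cells it went from 7.16 through 10.9 and 10.3 to 17.7% (17 of 96 cells), while LHX9+ cells had no such order, with 39.2, 34.3, 51.9 and 18.8% (3 of 16 cells in the last). Bins are ranks within a library, and the median interneuron-like cell had 4990, 6333.5, 7727 and 7289 UMIs in the 4 bins. The last interneuron-like bin was thus not the deepest by its median. The median cell of the shallowest Purkinje-like bin had 3042 UMIs, and no test was made between these shares. Without E60_1 and E60_2, the shares of all kept cells were 14.5, 14.9, 19.4 and 25.7%, those of Purkinje-like cells 33.3, 63.2, 61.1 and 86% and those of PENK+ cells 40.9, 55, 76.5 and 70.5%, so that the order of the inner bins in Purkinje-like cells and of the deepest bins in PENK+ cells turned.

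The level per UMI was also set against depth. Cells above the median UMIs of their library had GAD1 at a lower level in 7 of 10 libraries, with a mean log2 difference of -0.62 ± 1.31 (SD, n = 10, exact sign-flip permutation adjusted p = 0.258). In E70_1, E70_2 and E70_3 GAD1 was at 56.8, 72.5 and 34.9 CPM in the shallower and 16.4, 14.9 and 10.0 CPM in the deeper cells, and in Adult_1 at 7.04 and 36.1 CPM. GAD2 gave -0.66 ± 1.17 and was lower in the deeper cells of the same number of libraries (exact permutation adjusted p = 0.258), and SLC32A1 gave 0.15 ± 1.33, higher in 5 of 10 (exact permutation adjusted p = 0.738). Without E60_1 and E60_2 the differences were -0.73, -0.74 and 0.28 for the 3 genes (exact permutation adjusted p = 0.281, 0.281 and 0.609). Over cells of neuronal clusters alone, the lower level in deeper cells passed for GAD1 (-0.82, exact permutation adjusted p = 0.0352) and GAD2 (-1.05, exact permutation adjusted p = 0.0176). Beside this, the number of interneuron-like cells was 409, 310, 139 and 112 from the shallowest to the deepest of the 4 bins, and the part of this in the levels was not tested.

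**Figure D5:**
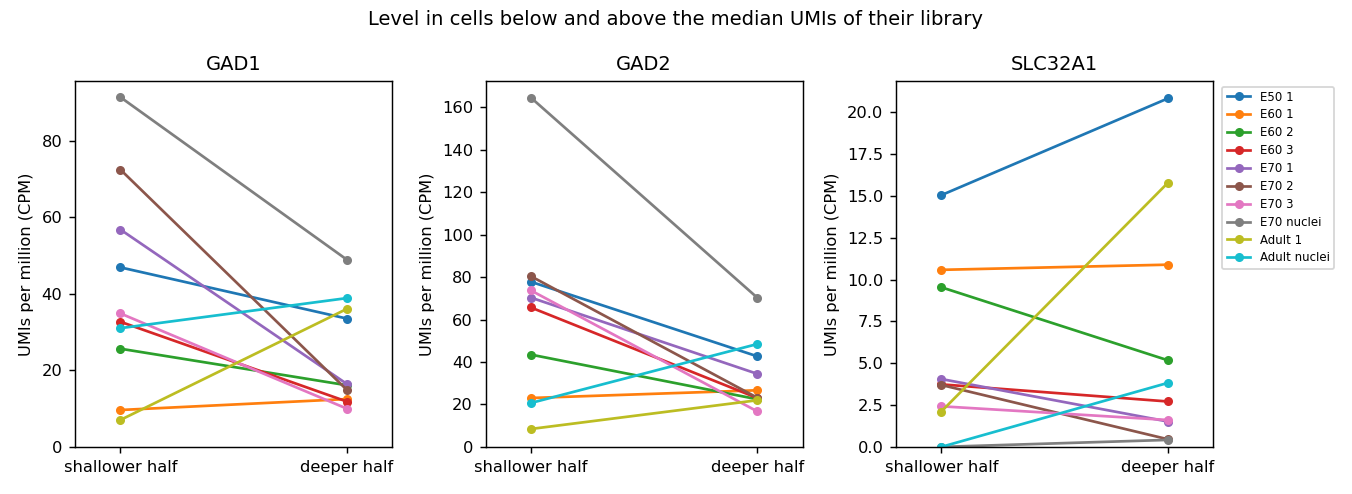
Level of each gene (CPM, linear axes from 0) in the cells below and above the median UMIs of their library, 1 line for each of the 10 libraries. GAD1 and GAD2 are lower in the deeper cells of 7 libraries each, and SLC32A1 is higher in those of 5.

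In Adult_1 the 3 transcripts came mostly from 5 neurons. These 5 cells, with a median of 37906 UMIs, held 116 of 138 GAD1 UMIs (84.1%), 54 of 59 SLC32A1 UMIs (91.5%) and 48 of 90 GAD2 UMIs (53.3%), and 1 cell alone held 51 UMIs of GAD1. Without the 5% deepest cells of the library, 20, 36 and 5 UMIs of GAD1, GAD2 and SLC32A1 were left. The ratios given for Adult_1 therefore describe those cells. In Adult_nc, 46 interneuron-like nuclei (1.89% of the kept nuclei) held 30.5% of GAD1 and 34.4% of GAD2 UMIs. Non-neuronal clusters, with 93.7% of the nuclei, held 68.3 and 60%.

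E70 nuclei and E70 whole cells differed in opposite directions for the decarboxylases and the carrier. Against the summed 3 whole cell libraries, the nuclei had 2.69 times the GAD1 level (interval 2.27 to 3.17), 2.46 times the GAD2 level (2.15 to 2.80) and 0.178 times the SLC32A1 level (0.00444 to 1.03, 1 against 68 UMIs). Within interneuron-like cells the ratios were 1.52 (1.27 to 1.82) for GAD1 and 1.58 (1.36 to 1.82) for GAD2. SLC32A1 had 0 UMIs in these nuclei against 42 in whole cells (ratio 0, interval 0 to 0.543). A floor of 3 counts over these nuclei would lie 2.37-fold below the whole cell level. The reads had been mapped to unspliced transcripts, and the genes differ in length, with 42957 bases for GAD1 (18 exons in the longest transcript), 74332 for GAD2 (17 exons) and 5082 for SLC32A1 (2 exons). Over all genes with a matched length (13201 of 16358, 80.7%), the median log2 difference of nuclei over whole cells was -1.75 for the 2244 genes up to 10 kb, -0.49 for 4903 genes of 10 to 40 kb, 0.15 for 2470 genes of 40 to 80 kb and 0.54 for 3290 longer genes. On the same scale, log2 of CPM plus 1, the members had 1.14, 1.17 and -1.10, and the part of length in their difference was not tested. There was 1 library of E70 nuclei, so nuclei and that brain cannot be told apart.

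To see which genes of the GABA pathway go with the decarboxylases, cells of neuronal clusters with a GAD1 or GAD2 UMI were compared with the other cells of neuronal clusters in the same library, in the 9 libraries with at least 10 cells on each side. GAD1 and GAD2 chose the cells and were left out. SLC32A1 was at 89.4 CPM in GAD cells and 2.44 CPM in the other neurons of E50_1, at 107, 68.7 and 18.1 against 15.2, 6.52 and 0.358 CPM in E60_1 to E60_3, at 7.46, 5.10 and 13.0 against 0, 0.711 and 0.308 CPM in E70_1 to E70_3, at 1.41 against 0 CPM in E70_nc and at 21.8 against 0 CPM in Adult_nc. GAD cells were higher in 9 of 9 libraries, with a log2 difference of 4.17 ± 0.30 (SE, edgeR with library as a block, adjusted p = 5.12e-07). The background was 434 of 15099 genes called (2.87%), 205 higher (1.36%) and 229 lower (1.52%) in GAD cells. Without E60_1 and E60_2, 952 genes were called and SLC32A1 was higher by 5.10 (adjusted p = 2.49e-10), and without E60_3 235 genes were called.

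Of the 51 genes of a GABA pathway list, 37 were tested, of which 13 were higher and 2 lower in GAD cells and 22 did not pass (median log2 difference 0.27, against -0.02 for all genes). Of the genes of uptake, SLC6A11 (0.22) and SLC6A13 (-0.13), plasma membrane GABA transporters, did not pass. Both genes of GABA breakdown were higher, the transaminase ABAT by 0.86 ± 0.12 (adjusted p = 0.000444) and the succinic semialdehyde dehydrogenase ALDH5A1 by 0.41 ± 0.10 (adjusted p = 0.0381). None of 7 genes that supply glutamine and the cofactor passed (SLC38A1 at -0.16, SLC38A2 at 0.06, SLC38A5 at -0.45), nor did the 2 genes of other GABA synthesis, the 2 of glycine transport, the 2 of GAD membrane anchoring or the 2 chloride carriers SLC12A2 (0.27) and SLC12A5 (0.30). Among the other vesicular transporters SLC17A6 was lower by 1.57 on the log2 scale (log2 difference -1.57 ± 0.15, adjusted p = 1.12e-05, 9 of 9 libraries), and SLC17A7 (-0.82), SLC17A8 (0.34) and SLC18A2 (-0.83) did not pass.

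The transcription factors of the list that regulate GABA neurons were the group with the most calls, with 10 of 13 higher and 1 lower. DLX1, DLX5 and DLX6, factors of forebrain interneurons, were higher by 4.42, 4.75 and 3.37, and LHX6, a factor of medial ganglionic eminence interneurons, by 2.02. GATA2, GATA3 and SOX14, factors of midbrain and thalamic GABA neurons, were higher by 2.60, 1.39 and 3.47, and LHX1 and LHX5 by 1.75 and 1.89. Several of these were not higher in every library. DLX1 was higher in 7 and lower in 2 of the 9, and DLX5 higher in 6 and lower in 1. GATA2 was higher in 4 and lower in 3, and SOX14 higher in 4 and lower in 0. DLX5 had no UMI in E60_2 or Adult_nc, and SOX14 had none in the E70 whole cells, E70_nc or Adult_nc. Their remaining libraries were thus ties at 0, and GATA2 was tied in its own, among them Adult_nc with no UMI. MEIS2, a homeobox gene, was lower by 1.05 on the log2 scale (-1.05 ± 0.12, adjusted p = 5.51e-05, 8 of 9 libraries), and PAX2 (0.29) and ISL1 (0.34) did not pass. Without E60_1 and E60_2, 36 genes of the list were tested, with 13 higher and 5 lower. Over all 15334 genes tested in that setting 952 were called, 447 higher and 505 lower. Of the 15 calls above, 14 were made again in the same direction and GATA2 was not tested, while SLC38A5 (-0.62) and SLC17A7 (-0.89) were then lower and SLC12A5 (0.65) higher. In the E60 and E70 comparison of whole libraries 0 of the 38 tested genes of the list were called by edgeR, with a median log2 difference of 0.30 against -0.03 for all genes.

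Over all genes, 75 were called and higher in every library and 59 called and lower in every library. By size, SLC32A1 led the first group, and others among its largest were an Ensembl gene with no symbol in the files (ENSSSCG00000023332, 2.67), ENSSSCG00000028942, which is the synaptic adhesion gene NRXN3 by its identifier (2.48), NXPH1 (2.26), ENSSSCG00000021315 (1.97), the factor SOX2 (1.80), PTCHD4 (1.61), the RNA-editing family member ADARB2 (1.48) and the AMPA receptor subunit GRIA1 (1.42). The second group was led by SLC17A6 (-1.57), NRN1 (-1.40), the cortical factor LHX2 (-1.36), the excitatory neuron factor NEUROD2 (-1.33), the neuropeptide gene ADCYAP1 (-1.33) and NEUROD6 (-1.22). NPTX1 (-1.09), the neurotensin receptor gene NTSR1 (-1.09), ENSSSCG00000032982 (-1.07) and the mitotic gene CENPF (-0.96) completed the 10 largest of the second group.

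Across the 41 clusters of at least 50 cells, the genes most like each member were named by Pearson's r of log2(CPM + 1) over 15428 genes. GAD1 was most like GAD2 (0.92), followed by PNOC, the prepronociceptin gene (0.87), ENSSSCG00000021315 (0.84), SLC32A1 (0.82) and SPOCK3 (0.82). GAD2 was most like GAD1, PNOC (0.91), NRXN3 (ENSSSCG00000028942, 0.86), PTCHD4 (0.86) and ENSSSCG00000021315 (0.84), with SLC32A1 in place 7 (0.83). SLC32A1 was most like the somatostatin gene SST (0.84), ahead of GAD2 (0.83), GAD1 (0.82), PNOC (0.82) and CD70 (0.79). DLX5 stood in place 155 for GAD1, 77 for GAD2 and 683 for SLC32A1. Without the cells of E60_1 and E60_2 (30 clusters, 15102 genes), GAD2 (0.88), SLC32A1 (0.85) and PNOC (0.85) were most like GAD1, PNOC (0.90) most like GAD2, and SST (0.86) most like SLC32A1. Clusters share libraries, and these values describe a likeness of levels over clusters without a test.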

How the data were processed

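The authors deposited 1 table of raw UMI counts per library (10 libraries, 22452 genes), made with 10x Genomics Chromium 3' version 2 chemistry and Cell Ranger (version 2.20 in the submitters' processing notes) on Sscrofa11.1, with reads mapped to pre-mRNA. From these counts, cells were normalised to 10000 UMIs and clustered (3000 variable genes, 50 components, mutual nearest neighbour correction, Louvain resolution 1.6), erythroid-like and vascular-like clusters were left out, and the rest was clustered again. A cluster was named where at least 3 markers of a list were found. Scrublet (scanpy 1.11.5) called 186 of 28229 cells as doublets and 0 in E60_1 and E60_2, so its calls were not relied on there, and called cells were kept in. UMIs were summed per library, or per library and cell group, and tested with edgeR 4.0.16 (quasi-likelihood, TMM, Benjamini-Hochberg over all genes), with DESeq2 1.42.0 as an alternative. Shares, ratios and co-detection were tested with exact permutation tests over libraries (scipy 1.17.1). Nothing says that libraries of a group came from separate litters, so p-values measure the spread between these libraries. Named genes were the 3 members, the pathway list by role, the 10 largest called changes in each direction that every library shared, and the 5 genes most like each member. The members, lists and tests were chosen with earlier results of these data known. Scripts were tested on simulated data. Replicate numbers shared by E60 and E70 did not pair the libraries. Some genes of the lists and 1 promoter are not reported here.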

Additional observations from a re-analysis of the deposited data

How the results depend on the processing

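Of 305 values over 20 results and all settings, 280 kept their direction and their side of the threshold or stayed within 1.5 times the count. Among these, the exact permutation tests of E60 against E70 could not pass the threshold in any setting, so their side was fixed. For E60 against E70, DESeq2 called 2456 genes in place of 0, with SLC32A1 at -2.11. Leaving out 1 library gave 0 to 5590 calls (5590 without E60_3, 1454 without E70_3), and SLC32A1 between -2.52 and -1.66. The replicate numbers did not pair the libraries (correlations of same-numbered deviations -0.144, 0.0399 and -0.135). With the replicate number as a block, 0 genes were called and GAD1, GAD2 and SLC32A1 were at 0.47, 0.20 and -1.89. Paired by number, the GAD2 share differed by -4.24, the SLC32A1 ratio by -13.2 and the thinned shares by 1.16, 1.80 and -0.465 (exact sign-flip p = 0.25 each, the smallest 3 pairs allow). For GAD cells against other neurons, 1650 genes were called over all kept cells, 235 to 654 with 1 library left out (654 without E60_2, 235 without E60_3, 271 without E70_3) and 952 without E60_1 and E60_2, an alternative chosen after seeing the data. At 1000 UMIs the log2 co-detection of GAD1 with SLC32A1 was 0.71 and of SLC32A1 with SLC17A6 -0.34, neither past the threshold. GAD2 with SLC17A6 lost its call with 5 strata (-0.44), over all cells (-0.41), without the 5% deepest cells (-0.58, chosen after seeing the data) and with 1 library left out (-0.62 to -0.39). The level of SLC32A1 in deeper cells turned to -0.0098 over all cells and ran from -0.11 to 0.35 with 1 library left out, below 0 without Adult_1 (-0.11) or Adult_nc (-0.088). Over neuronal clusters GAD1 (-0.82) and GAD2 (-1.05) passed. The cause of these moves was not tested. SLC32A1 had 1 to 12 UMIs in 4 libraries, which limits what its values there can show.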

Other observations

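One cluster of microglia-like cells (161 cells, led by SPP1 and CXCL10) carried the 3 GABA transcripts at a level of neurons, with GAD1 at 49.6 CPM, GAD2 at 99.8 CPM and SLC32A1 at 12.8 CPM in 31.1, 44.7 and 12.4% of its cells. Its summed level of general neuron markers was 2981 CPM, against 85.5 to 388 CPM in the other microglia-like clusters of at least 50 cells, and 12 of its 48 cells from other libraries than E60_1 and E60_2 were called doublets (25%). The other 113 cells came from E60_1 and E60_2 (74 and 39), in which no cell of any cluster was called. The part of doublets in its GABA transcripts was not tested.

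Another pair of clusters had an unusual balance of the decarboxylase genes. In a cluster led by KCNJ6, NEUROD1 and RELN (265 cells) GAD1 was at 54.3 CPM and GAD2 at 27.5 CPM, and GAD2 gave 33.6% of the GAD UMIs, with 23.6% in E50_1 (106 UMIs, interval 15.9 to 32.8) and 67.7% in E60_1 (31 UMIs, interval 48.6 to 83.3). SLC32A1 had 2 UMIs there. In a non-neuronal cluster led by TTR, the transthyretin gene, and the photoreceptor genes RCVRN and SAG (483 cells), GAD2 gave 82.7% of 226 GAD UMIs (interval 77.2 to 87.4), with GAD2 at 58.2 CPM, GAD1 at 12.1 CPM and 6 UMIs of SLC32A1. By library this share was 91.4% in E50_1, 92.6% in E70_1, 79.2% in E70_3 and 40.7% in Adult_nc (27 UMIs, interval 22.4 to 61.2), which held 223 of the cells.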
